A study of Homo sapiens with 8 samples.

Results

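The genes described here are the TRIM family of ubiquitin ligases in A549 cells, a human lung adenocarcinoma line. Members were the protein-coding genes of the count table whose symbol is TRIM followed by a number, with letters after it where the symbol has them, and that had a count in at least 1 library. Of 60664 genes in the table, 73 protein-coding genes carried such a symbol and 53 were members. RNA was sequenced from 8 libraries, 2 in each of 4 groups of this 1 cell line. The groups were untreated cells, cells given AX-0085 (a kinase inhibitor, 0.5 μM), cells given IFN-γ (20 ng in the labels, with no volume), and cells given both. IFN-γ was added for 24 h, AX-0085 followed, and cells were harvested after another 24 h. The labels name no vehicle for the untreated cells. Nothing in the labels says that the 2 libraries of a group came from separate cultures, so that p-values measure the spread between these libraries, which may be technical.

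TRIM proteins share a RING finger, 1 or more B-box zinc fingers and a coiled coil, and most act as E3 ubiquitin ligases that join ubiquitin to a target chosen by the domain at their far end. Many take part in innate immunity, where they modify or restrain the sensors of viral nucleic acid and their adaptors, and several are known interferon-stimulated genes. Others bind microtubules through a COS box, repress transcription through bromodomains, or carry NHL repeats.

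Total counts ran from 20672828 to 29978251 a library, and TRIM members took 0.171 to 0.209% of them, with both IFN-γ libraries highest (0.202 and 0.209%). A count of 3 equals 0.0959 to 0.158 CPM, the count scaled to library size. The 5 epithelial markers (EPCAM, KRT8, KRT18, KRT19 and CDH1) were present in every library. Their summed level, nearly all from KRT8 and KRT18, was 6670 to 6870 CPM in untreated libraries and 3300 to 3460 CPM under AX-0085. It was 2480 to 2640 CPM under IFN-γ and 3610 to 3820 CPM under both. The markers did not move together with AX-0085 alone. Their log2 fold changes against untreated cells were -0.909 for KRT8, -1.302 for KRT18, 1.335 for EPCAM, 0.522 for CDH1 and 0.097 for KRT19. Leukocyte markers summed to at most 0.162 CPM with CD3E at 0 in every library, endothelial markers to at most 0.528 CPM, and fibroblast markers to 2.82 to 10.6 CPM, nearly all from COL1A1. Of 4 alveolar type II markers, NAPSA and NKX2-1 had no count in any library, and the summed level was at most 0.495 CPM. All exon bases of NAPSA and NKX2-1 lie inside the span of another gene, so their zeros were not read as absence. The fibroblast sum, like the epithelial one, was lowest in the IFN-γ libraries, at 2.82 to 3.97 CPM. Their part in the results was not tested.

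Which TRIM genes could be measured came first. Of the 73 genes, 20 had a count of 0 in all 8 libraries. For 8 of them, over 98% of the exon bases lay inside the span of another gene on either strand in GENCODE 44. They were TRIM2, TRIM6, TRIM13, TRIM22, TRIM32, TRIM34, TRIM46 and TRIM52, and they include TRIM22 and TRIM34, which are known interferon-stimulated genes. TRIM22 lies in the span of TRIM5, and TRIM32 in that of ASTN2. Across the 2436 protein-coding genes whose exon bases all lay inside another gene, 81.7% were at 0 in every library, against 14.9% of the 8779 with no such base. Of 600 genes that lay wholly inside a gene on the other strand without touching its exons, 96.8% were at 0. A count of 0 in these 8 genes was therefore not read as absence of the transcript, and their response to IFN-γ is not analysed here. The other 12 genes at 0 (TRIM10, TRIM42, TRIM48, TRIM49, TRIM49B, TRIM49C, TRIM51, TRIM51G, TRIM64, TRIM64B, TRIM64C and TRIM77) shared no exon base with another gene. The treatment of multi-mapped reads is not given. Zeros of genes with close copies, such as TRIM49, TRIM49B and TRIM49C, were therefore also not read as absence.

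**Figure D1:**
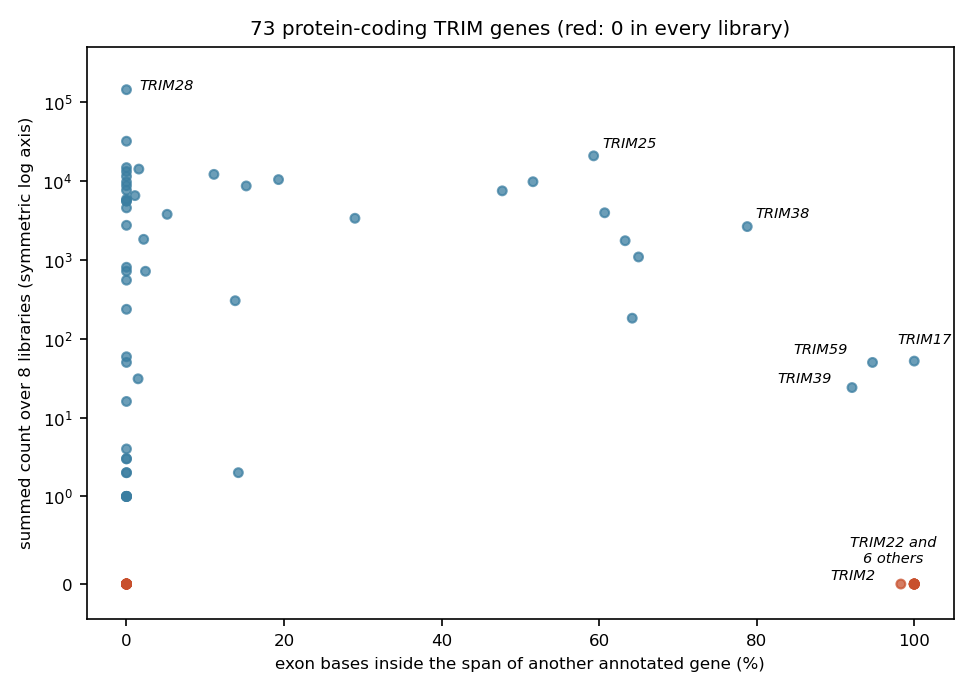
Each point is 1 of the 73 protein-coding TRIM genes, with the percent of its exon length that lies within another gene of GENCODE 44 on the x axis and its count summed over the 8 libraries on a symmetric log y axis. The 20 genes at 0 (red) sit at the ends of the x axis, 12 with no shared base and 8 with over 98% shared.

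Of the 53 members, 36 passed the filter on low counts and were tested. The other 17 had at most 12 counts in any library. Of those, TRIM15, TRIM40, TRIM43, TRIM43B, TRIM58, TRIM60, TRIM61, TRIM63, TRIM71, TRIM72 and TRIM75 (11 genes) had at most 3 counts in every library, and 5 of them sat just inside the rule with 1 count in all. TRIM29, TRIM39, TRIM50, TRIM54, TRIM55 and TRIM59 were also too low to test. Over 50% of the exon bases lay inside another gene for 10 members, 8 of them tested. These were TRIM47 (51.6%), TRIM25 (59.3%), TRIM7 (60.7%), TRIM5 (63.3%), TRIM31 (64.2%, the antisense gene TRIM31-AS1), TRIM16 (65%), TRIM38 (78.8%) and TRIM17 (100%), and their levels may leave out or share reads.

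Per kb of exon outside other genes and over all 8 libraries, TRIM28 (the corepressor of KRAB zinc finger proteins) had the highest level at 164 CPM per kb. TRIM47 followed at 32.4, TRIM25 at 21, TRIM21 at 14.9, TRIM4 at 14.7 and TRIM65 at 14.4 CPM per kb. The values of TRIM47 and TRIM25 depend on the length used. Only 1521 of 3145 and 5052 of 12417 exon bases lay outside other genes, and both values would be lower over all exon bases. The lowest levels among tested members were 0.306 CPM per kb for TRIM73 and 0.407 for TRIM67, and TRIM17 had no exon base of its own to set a level by. TRIM28 stood over all other members in every library, whereas TRIM21, TRIM4 and TRIM65 were too close to order. In untreated cells TRIM21 was at 8.58 CPM per kb, below TRIM65 at 15.5, and with IFN-γ it was at 30.2, above TRIM65 at 13.9.

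With IFN-γ alone, the antiviral genes TRIM21, TRIM25, TRIM31 and TRIM38 rose together with TRIM69, TRIM36 and TRIM8, and TRIM45, TRIM67, TRIM16, TRIM62 and TRIM17 fell. Counted where the Benjamini-Hochberg-adjusted p was under 0.05 and the change exceeded 2-fold, 7 of 36 tested members were higher (19.4%, against 10.3% of all 15066 genes tested) and 5 were lower (13.9%, against 17.2%). The median log2 fold change of the tested members was 0.20, and that of all genes was -0.06. On the adjusted p alone, 18 members were higher, 8 were lower and 10 passed in neither direction, where the shares of all genes were 32.1% higher and 36% lower. In bulk RNA, fewer cells with a transcript and less RNA per cell cannot be told apart. The 2 groups did not overlap for any of the 12 members past both thresholds. They also did not overlap for members that passed neither threshold, such as TRIM24, TRIM26 and TRIM65. The share over all genes was not computed, so non-overlap is not given as support for the calls.

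**Figure D2:**
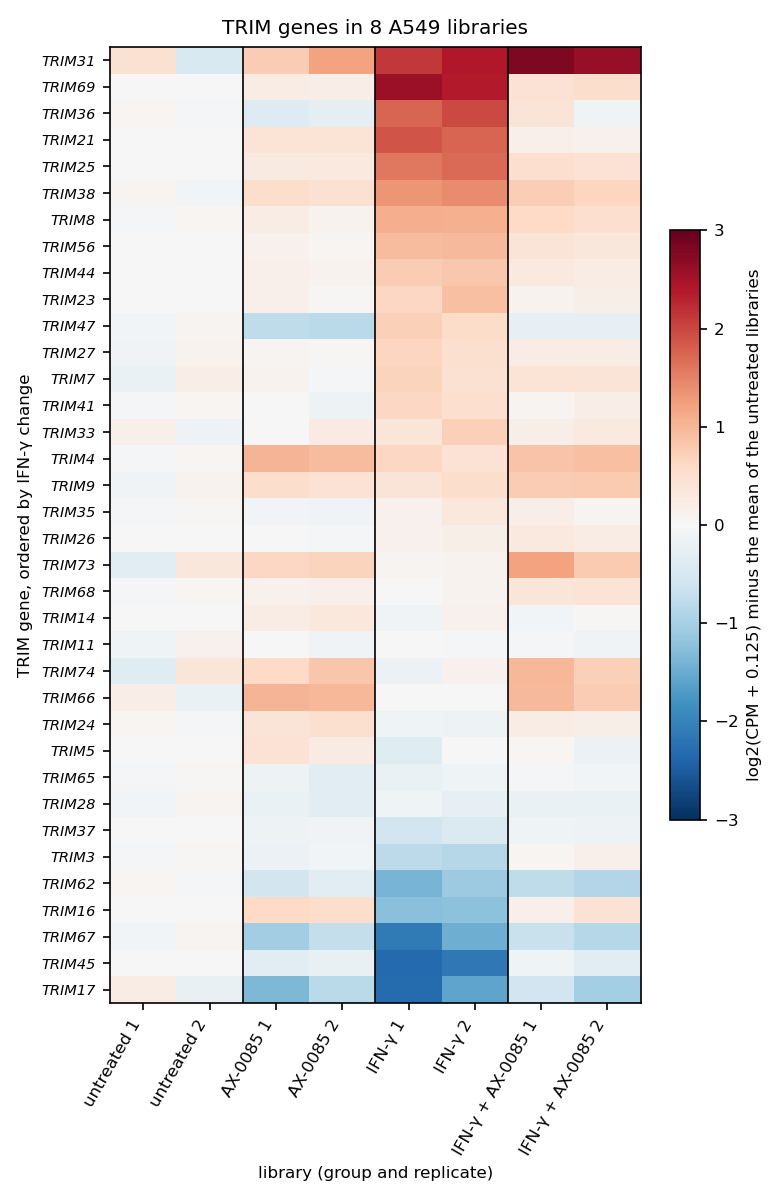
Rows are the 36 tested TRIM genes ordered by their IFN-γ change, columns are the 8 libraries, and color is the log2 CPM (with a small offset) minus the mean of the untreated libraries. The top rows are red in the IFN-γ columns and pale in the columns with both treatments, except TRIM31, which stays red, and the lowest rows are blue in the IFN-γ columns.

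TRIM69 (ENSG00000185880, chr15:44728988-44767829, plus strand, GRCh38) encodes a ligase described as an inhibitor of vesicular stomatitis virus. Its level was 13.4 and 13.8 CPM in untreated cells, 81.6 and 71.2 with IFN-γ, 15.8 and 15.6 with AX-0085, and 18.3 and 19.6 with both. Both IFN-γ libraries were above all 6 others, which ran from 13.4 to 19.6 CPM. Its log2 fold change with IFN-γ was 2.49, with an SE of 0.09 and an adjusted p of 5.75e-11 in edgeR's quasi-likelihood test, on which all adjusted p-values here rest.

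TRIM21 (ENSG00000132109, chr11:4384897-4393702, minus strand), the cytosolic Fc receptor that sends antibody-coated viruses to the proteasome, was at 16.8 and 16.4 CPM in untreated cells, 61.3 and 55.6 with IFN-γ, 22 and 22 with AX-0085, and 18.5 and 18.2 with both. It rose by 1.81 on the log2 scale (SE 0.08, edgeR adjusted p = 3.61e-10). As with TRIM69, the libraries with both treatments lay above the untreated ones but far closer to them than to the IFN-γ ones. Cells given both were not tested against untreated cells. TRIM25 (ENSG00000121060, chr17:56836387-56914080, minus strand), which ubiquitinates the viral RNA sensor RIG-I, was at 62.2 and 64.2 CPM in untreated cells, 188 and 207 with IFN-γ, 76.8 and 77.2 with AX-0085, and 89.1 and 84.8 with both. It rose by 1.65 (SE 0.06, edgeR adjusted p = 1.07e-10). TRIM38 (ENSG00000112343, chr6:25962802-25991231, plus strand), a regulator of Toll-like receptor and TNF signalling, had 8.5 and 7.53 CPM in untreated cells, 20.2 and 21.5 with IFN-γ, 11.5 and 11.1 with AX-0085, and 13.4 and 12.6 with both. It rose by 1.37 (SE 0.10, edgeR adjusted p = 4.57e-08), and the libraries with both treatments lay between the untreated and the IFN-γ ones.

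TRIM31 (ENSG00000204616, chr6:30102897-30113090, minus strand), a ligase for the adaptor MAVS and the inflammasome protein NLRP3, was a low gene with the largest rise among the tested members. Its counts were 8 and 2 in untreated cells, 21 and 34 with IFN-γ, 9 and 14 with AX-0085, and 58 and 36 with both. In CPM these were 0.265 and 0.0815, 1.11 and 1.37, 0.358 and 0.527, and 1.85 and 1.62. Unlike the other members that rose, it was highest with both treatments. The log2 fold change with IFN-γ was 2.75 (SE 0.44, edgeR adjusted p = 9.59e-05), and it was 3.90 without untreated replicate 1 and 2.22 without untreated replicate 2.

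The other 2 members that rose, like TRIM69, were not on the antiviral list. TRIM36 (ENSG00000152503, chr5:115124762-115180546, minus strand), a microtubule-binding COS-box protein, was at 1.75 and 1.63 CPM in untreated cells, 5.92 and 7.03 with IFN-γ, 1.27 and 1.35 with AX-0085, and 2.24 and 1.53 with both. Its log2 fold change with IFN-γ was 1.94 (SE 0.19, edgeR adjusted p = 1.09e-06). TRIM8 (ENSG00000171206, chr10:102642503-102658318, plus strand), a regulator of NF-κB and of the cytokine signalling inhibitor SOCS1, was at 35.4 and 38 CPM in untreated cells, 78.1 and 77.2 with IFN-γ, 42.9 and 39.5 with AX-0085, and 55.3 and 51.9 with both. It rose by 1.08 (SE 0.08, edgeR adjusted p = 3.36e-08), and by 0.97, short of a 2-fold change, where scaling used library size alone.

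Promoter sequences of RefSeq (GRCh38.p14, from 250 bases before to 50 after each gene start) were matched by symbol for 28 of the 36 tested members and for 6 of the 7 that rose, TRIM8 having no entry. The windows below are shown because TRIM69, TRIM21 and TRIM25 rose most among those with a match to an interferon-stimulated response element (ISRE) core or to a spacer variant of it. Capitals mark the match, and each window runs 5′ to 3′ on the strand of the gene, with positions counted from the gene start. The match lies at -62 to -53 in TRIM69 (chr15:44736456-44736485, plus strand), at 18 to 33 in TRIM21 (chr11:4393663-4393692, minus strand, 2 overlapping matches) and at -3 to 6 in TRIM25 (chr17:56914034-56914063, minus strand).
TRIM69: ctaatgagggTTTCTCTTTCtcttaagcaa
TRIM21: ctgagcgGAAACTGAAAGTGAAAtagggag
TRIM25: ctcgagctaggTTTCGTTTCctcggcggcc

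The ISRE core searched was GAAA, any 2 bases and GAAA on both strands, and it was held by 3.57% of all 35116 promoters. Among tested members it was held by 7 of 35 promoters. Among the 6 searched members that rose it was held by 2 of 7 promoters, those of TRIM69 and TRIM21. TRIM25 held only GAAANGAAA, with 1 base between the GAAA runs and no overlap with an ISRE match, which 3.12% of all promoters held and which was added to the search after the TRIM25 sequence had been seen. The core of the gamma-activated site, TTCNNNGAA, was held by 7.66% of all promoters and by 0 of the 7 promoters of the 6 searched members that rose. TRIM31, TRIM36 and TRIM38 held none of these letters in this window. Of the 5 promoters found for 4 members that fell (TRIM45 had no entry), 1 held the ISRE core and 1 the core of the gamma-activated site. Both matches were in TRIM16, at -80 to -71 for the ISRE core and -184 to -176 for the other. For comparison, TRIM5 and TRIM14, antiviral members whose log2 fold changes with IFN-γ were -0.15 (SE 0.14) and 0.02 (SE 0.09), also held the ISRE core, in TRIM5 at -27 to -18 (chr11:5685082-5685111, minus strand) and in TRIM14 at -26 to -17 (chr9:98119229-98119258, minus strand).
TRIM5: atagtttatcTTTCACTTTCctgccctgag
TRIM14: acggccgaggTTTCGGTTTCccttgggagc

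The 250 bases before the RefSeq start of TRIM69 (chr15:44736278-44736527, plus strand) are printed because this gene had the largest rise among members with over 100 counts in each library, with the ISRE core in capitals. This start lies inside the span that GENCODE 44 gives the gene.
TRIM69 upstream: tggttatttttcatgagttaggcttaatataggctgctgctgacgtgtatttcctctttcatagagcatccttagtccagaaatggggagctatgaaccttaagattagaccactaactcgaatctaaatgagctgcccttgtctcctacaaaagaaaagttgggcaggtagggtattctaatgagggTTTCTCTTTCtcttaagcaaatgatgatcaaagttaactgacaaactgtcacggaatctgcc

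Of the 16 genes on the list of innate and antiviral TRIM genes, 12 were tested and 3 (TRIM6, TRIM22 and TRIM34) were at 0. With IFN-γ, 4 of the 12 rose past both thresholds and 0 fell, where 10.3% of all genes were higher and 17.2% lower. The median log2 fold change was 0.67 against -0.06 for all genes. This list, like the other gene lists here, was chosen with earlier results of these data known. Its difference from all genes is therefore not given as support for a response of antiviral genes. TRIM56, a ligase linked to cGAS and STING, came close to a 2-fold change at 0.97 (SE 0.06), from 56 and 55.6 CPM in untreated cells to 108 and 110 with IFN-γ. TRIM23, which activates the NF-κB regulator NEMO, changed by 0.77 (SE 0.10). Outside the list TRIM44, which lacks a RING finger, changed by 0.78 (SE 0.05), from 129 and 126 CPM to 215 and 222.

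Of the 5 members that fell with IFN-γ, TRIM45 had the clearest change. TRIM45 (ENSG00000134253, chr1:117111060-117122587, minus strand), a repressor of MAP kinase signalling, was at 4.76 and 4.68 CPM in untreated cells, 0.845 and 0.965 with IFN-γ, 3.78 and 4.03 with AX-0085, and 4.32 and 3.69 with both. The IFN-γ libraries were far below the other 6, and the gene fell by 2.37 on the log2 scale (SE 0.20, edgeR adjusted p = 2.19e-07). TRIM67 (ENSG00000119283, chr1:231162058-231221565, plus strand), a COS-box protein best known from neurons, was at 5.96 and 6.76 CPM in untreated cells, 1.37 and 2.21 with IFN-γ, 3.03 and 3.8 with AX-0085, and 3.96 and 3.46 with both. It fell by 1.78 (SE 0.21, edgeR adjusted p = 4.98e-06), and its AX-0085 libraries were also below the untreated ones.

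TRIM16 (ENSG00000221926, chr17:15627960-15684311, minus strand), which lacks a RING finger and takes part in the autophagy of damaged lysosomes, was at 5.1 and 5.01 CPM in untreated cells, 2.06 and 2.09 with IFN-γ, 7.73 and 7.38 with AX-0085, and 5.66 and 6.83 with both. It fell by 1.28 with IFN-γ (SE 0.17, edgeR adjusted p = 1.35e-05). Its values are uncertain because a near-identical copy, TRIM16L, can share its reads. TRIM62 (ENSG00000116525, chr1:33145399-33182059, minus strand), a regulator of epithelial polarity, was at 5.26 and 4.89 CPM in untreated cells, 1.85 and 2.33 with IFN-γ, 3.43 and 3.99 with AX-0085, and 2.94 and 2.7 with both. It fell by 1.26 (SE 0.18, edgeR adjusted p = 2.70e-05).

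TRIM17 (ENSG00000162931, chr1:228407935-228416861, minus strand), known for targeting the survival protein MCL1 in neurons, rested on few reads, and all of its exon bases lie inside another gene. Its counts were 18 and 10 in untreated cells, 0 and 2 with IFN-γ, 3 and 6 with AX-0085, and 9 and 4 with both. The ratio of untreated to IFN-γ cells was 11.2, with an exact 95% binomial interval from 2.82 to 97 that covers counting error only. In the fit its log2 fold change was -3.35 (SE 0.77, edgeR adjusted p = 0.00172), with -6.70 without IFN-γ replicate 2 and -2.58 without IFN-γ replicate 1.

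**Figure D3:**
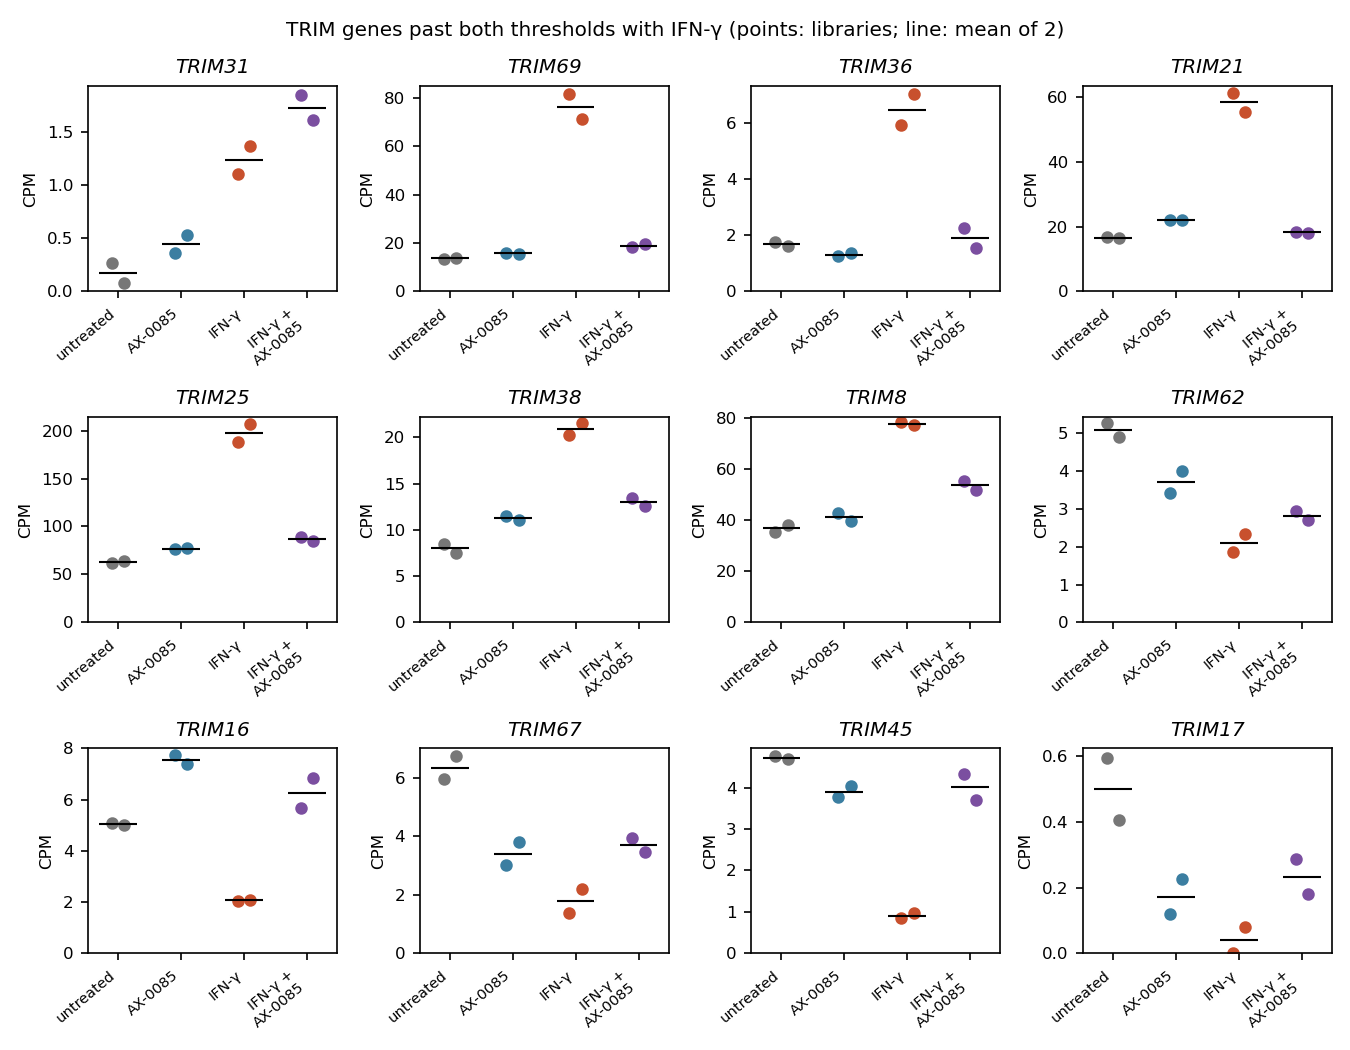
Each panel shows 1 of the 12 TRIM genes past both thresholds with IFN-γ, with the level in CPM on a y axis from 0, a point for each library and a line at the mean of the 2 libraries. The first 7 genes are higher and the last 5 lower in the IFN-γ libraries, and only TRIM31 is highest with both treatments.

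On addition of AX-0085 to IFN-γ, TRIM69, TRIM36, TRIM21 and TRIM25 fell and TRIM45, TRIM16, TRIM67, TRIM73 and TRIM17 rose. Against IFN-γ alone, 5 of 36 tested members were higher (13.9%, against 16.5% of all genes) and 4 were lower (11.1%, against 8.28%). This comparison shares the IFN-γ libraries with the one above, so that the opposite signs of the 2 comparisons are given side by side and not as a finding. On the adjusted p alone 13 members were higher and 13 lower, where 33.7% and 32.8% of all genes were.

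The log2 fold changes of the 4 members that fell were -2.01 for TRIM69 (SE 0.09, edgeR adjusted p = 4.11e-10), -1.75 for TRIM36 (SE 0.19, edgeR adjusted p = 2.83e-06), -1.67 for TRIM21 (SE 0.08, edgeR adjusted p = 1.02e-09) and -1.18 for TRIM25 (SE 0.06, edgeR adjusted p = 2.68e-09). In each, both libraries with both treatments lay below both IFN-γ libraries, which also held for members that passed neither threshold, such as TRIM7 and TRIM11. TRIM38 had a log2 fold change of -0.68 (SE 0.09) and TRIM8 one of -0.53 (SE 0.07), which passed the adjusted p but not the 2-fold change. TRIM31 had one of 0.48 (SE 0.29, edgeR adjusted p = 0.158), and its libraries of both groups ran from 1.11 to 1.37 CPM and from 1.62 to 1.85 CPM.

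The 5 members that rose on addition of AX-0085 included TRIM45 by 2.14 (SE 0.21, edgeR adjusted p = 9.23e-07) and TRIM16 by 1.57 (SE 0.16, edgeR adjusted p = 1.76e-06). The other 3 calls were near a threshold. TRIM67 changed by 1.02 (SE 0.22, edgeR adjusted p = 0.00128), and by 0.75 without IFN-γ replicate 1 and 0.91 without replicate 1 of the cells given both. In DESeq2 it was at 0.995 and with DESeq2 size factors at 0.985, just short of a 2-fold change. TRIM73 (ENSG00000178809, chr7:75395063-75410996, plus strand), a near-identical copy of TRIM74, whose reads may be split between the pair, was at 1.06 and 1.09 CPM with IFN-γ and 2.46 and 1.8 with both, after 0.761 and 1.3 in untreated cells and 1.59 and 1.66 with AX-0085. Its log2 fold change was 1.01 (SE 0.28, edgeR adjusted p = 0.00656), and TRIM74 was just under the 2-fold change at 0.98 (SE 0.32). TRIM73 too was under it at 0.96 in DESeq2 and 0.97 with DESeq2 size factors. TRIM73 was also no longer called without IFN-γ replicate 1 or without replicate 1 of the cells given both, with values from 0.74 to 1.19 over all libraries left out. TRIM17 rose by 2.29 (SE 0.91, edgeR adjusted p = 0.0395), on 13 counts against 2, a ratio of 5.32 with an exact 95% interval from 1.2 to 48.6 for counting error. It was not called without IFN-γ replicate 1 (log2 fold change 1.53, edgeR adjusted p = 0.188), without replicate 1 (1.87, edgeR adjusted p = 0.226) or replicate 2 (2.54, edgeR adjusted p = 0.0516) of the cells given both, in DESeq2 (2.38, DESeq2 adjusted p = 0.129) or with the replicate number as a block (2.27, edgeR adjusted p = 0.0549), and its value without IFN-γ replicate 2 was 5.68.

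AX-0085 alone changed few TRIM genes by 2-fold. Against untreated cells 1 member was higher (2.78%, against 6.41% of all genes) and 1 lower (2.78%, against 5.62%). On the adjusted p alone 11 members were higher, 6 lower and 19 passed in neither direction, where 26.7% and 26.6% of all genes were higher and lower. The member past both thresholds was TRIM66 (ENSG00000166436, chr11:8612037-8682694, minus strand), a bromodomain protein of the chromatin cofactor group that lacks a RING finger. It was at 6.88 and 5.17 CPM in untreated libraries, 12.3 and 12 CPM under AX-0085, 5.92 and 5.91 CPM under IFN-γ and 11.8 and 10.2 CPM under both, so that the 4 libraries with AX-0085 lay above the 4 without it. The log2 fold change was 1.00 (SE 0.13, edgeR adjusted p = 3.30e-05), at the edge of the 2-fold change, and it was 0.82 without untreated replicate 2 and 0.99 without AX-0085 replicate 1. TRIM17 was the lower one, at -1.52 (SE 0.55, edgeR adjusted p = 0.0321) on 28 counts against 9 in sum. It lost the call without untreated replicate 1 (-1.19), AX-0085 replicate 1 (-1.16), AX-0085 replicate 2 (-2.05) or replicate 1 of the cells given both (-1.51), and in DESeq2 (-1.54, DESeq2 adjusted p = 0.207).

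TRIM4, which acts on RIG-I like TRIM25, was just short of a 2-fold change with AX-0085 at 0.98 (SE 0.07), from 42.9 and 46.2 CPM to 90 and 85.8. TRIM47 was at 46.6 and 52.8 CPM in untreated cells and 29.2 and 28.2 with AX-0085, a log2 fold change of -0.79 (SE 0.08). TRIM31 had a log2 fold change of 1.27 that missed the adjusted p (SE 0.53, edgeR adjusted p = 0.0608) and was 2.39 (edgeR adjusted p = 0.0248) without untreated replicate 1. Of the 7 members that rose with IFN-γ, TRIM38, TRIM21 and TRIM25 passed the adjusted p with AX-0085 alone, at log2 fold changes of 0.49 (SE 0.10), 0.40 (SE 0.08) and 0.28 (SE 0.06). TRIM69 at 0.21 (SE 0.10, edgeR adjusted p = 0.0777), TRIM8 at 0.17 (SE 0.08, edgeR adjusted p = 0.0786) and TRIM36 at -0.37 (SE 0.25, edgeR adjusted p = 0.231) did not.

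In cells that received AX-0085, IFN-γ changed a single tested member past both thresholds. With both treatments against AX-0085, 1 of 36 was higher (2.78%, against 1.79% of all genes) and 0 were lower (0%, against 1.73%), where edgeR's adjusted p alone gave 11 higher and 4 lower members (17.3% and 17.4% of all genes). The member was TRIM31, with a log2 fold change of 1.96 (SE 0.34, edgeR adjusted p = 0.00076) from 9 and 14 counts to 58 and 36. TRIM69 had one of 0.27 (SE 0.09), TRIM36 0.55 (SE 0.24, edgeR adjusted p = 0.0965), TRIM25 0.18 (SE 0.06), TRIM38 0.21 (SE 0.10), TRIM8 0.38 (SE 0.08) and TRIM21 -0.26 (SE 0.08). Among those that fell with IFN-γ alone, TRIM45 was at 0.05 (SE 0.15), TRIM67 at 0.13 (SE 0.19), TRIM16 at -0.29 (SE 0.13) and TRIM62 at -0.39 (SE 0.17).

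The interaction tests whether the IFN-γ change differed with and without AX-0085. It passed both thresholds for 9 of 36 tested members, 4 higher (11.1%, against 12.1% of all genes) and 5 lower (13.9%, against 6.46%). The 5 lower ones were TRIM69, TRIM21, TRIM25, TRIM36 and TRIM38, all of which rose with IFN-γ alone. The interaction subtracts that same IFN-γ change, so opposite signs are partly built in and are not given as a finding. TRIM69 had the largest difference of the 5 at -2.23 (SE 0.13, edgeR adjusted p = 2.75e-08). The higher ones were TRIM45 at 2.41 (SE 0.26, edgeR adjusted p = 5.88e-06), TRIM67, TRIM17 and TRIM3. TRIM3 (ENSG00000110171, chr11:6448613-6474459, minus strand), an NHL-repeat ligase best known from the brain, had not passed the 2-fold change in any other comparison. It was at 14.5 and 15.4 CPM in untreated cells, 8.56 and 8.2 with IFN-γ, 13.3 and 14 with AX-0085, and 15.5 and 16.6 with both, and its interaction was 1.07 (SE 0.13, edgeR adjusted p = 2.53e-05). For TRIM31 the interaction was -0.78 (SE 0.61, edgeR adjusted p = 0.305), so that a difference in its IFN-γ change was not detectable at this depth. TRIM8 (-0.70, SE 0.11), TRIM16 (1.00, SE 0.21) and TRIM62 (0.87, SE 0.25) passed the adjusted p but not the 2-fold difference.

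**Figure D4:**
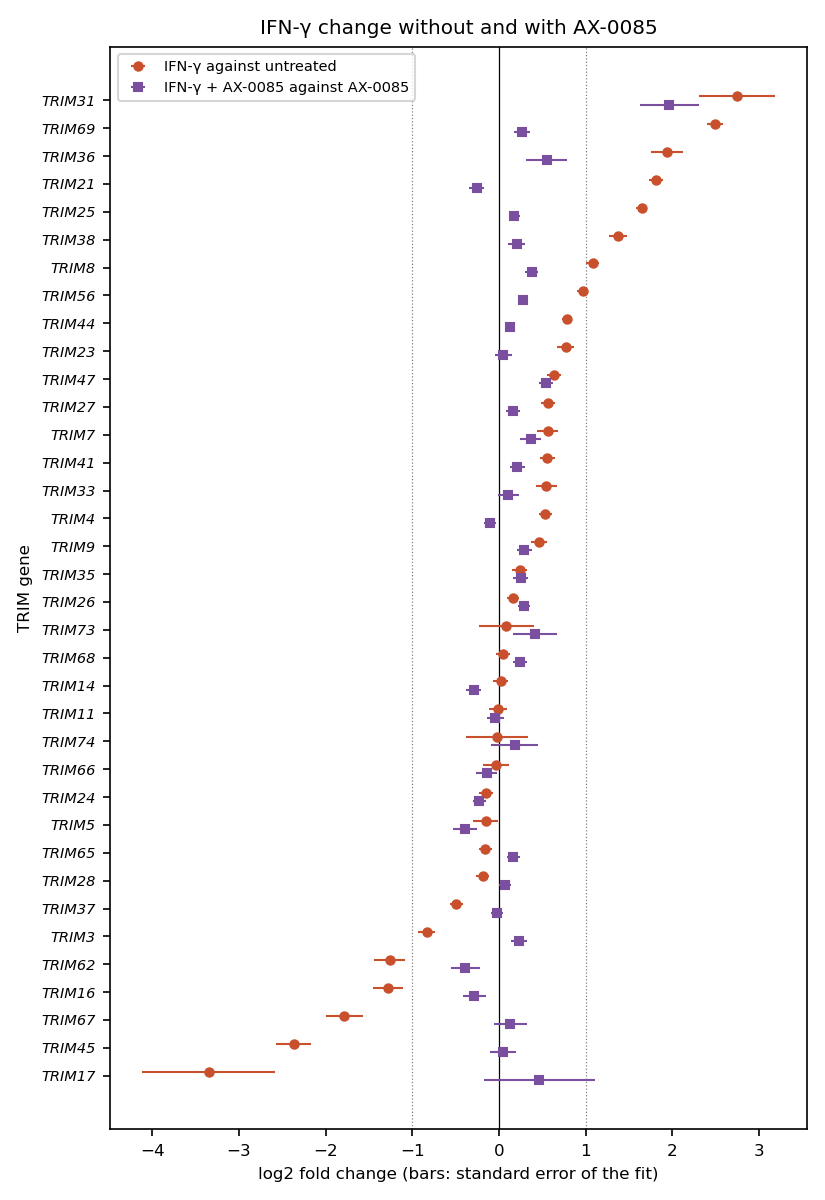
For each of the 36 tested TRIM genes, the x axis gives the log2 fold change of IFN-γ without AX-0085 (circles) and with it (squares), with bars for the SE of the fit and dotted lines at a 2-fold change. With AX-0085 the squares lie between the dotted lines for every gene except TRIM31, at 1.96.

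Among the chromatin cofactors TRIM66 alone passed both thresholds in any comparison, with AX-0085 alone. All 4 (TRIM24, TRIM28, TRIM33 and TRIM66) were tested, and 0 passed both thresholds with IFN-γ or on addition of AX-0085 to it. With IFN-γ 10.3% of all genes were higher and 17.2% lower, and on addition of AX-0085 16.5% and 8.28%. With AX-0085 alone the shares were 6.41% and 5.62%, and 4 genes are too few to set against them. TRIM28 was at 742 and 836 CPM in untreated libraries, 721 and 663 CPM under IFN-γ, 681 and 630 CPM under AX-0085 and 686 and 691 CPM under both, and its log2 fold change for IFN-γ was -0.19 (SE 0.07). TRIM24, a coactivator of nuclear receptors, was at 35.2 and 32.2 CPM when untreated and 30.8 and 30.1 CPM under IFN-γ. TRIM33, a ligase for SMAD4, was at 40.1 and 32.7 CPM when untreated and 46.7 and 59.4 CPM under IFN-γ, and its log2 fold change was 0.54 (SE 0.12).

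The other structural groups were small, and their counts stand beside 10.3% of all genes higher and 17.2% lower with IFN-γ. Of the 8 genes on the COS-box list, which leaves out MID1 (given below), 3 were tested (TRIM9, TRIM36 and TRIM67). With IFN-γ 1 was higher and 1 lower. On addition of AX-0085 the signs of these were reversed, where 16.5% of all genes were higher and 8.28% lower. The 2 comparisons share the IFN-γ libraries, so the reversal is not given as a finding. Of 4 NHL-repeat genes, TRIM3 alone was tested, and TRIM2 and TRIM32 were at 0. Of the 2 genes with a transmembrane segment, TRIM13 was at 0 and TRIM59 was too low to test. Of the 4 tested members without a RING finger, TRIM16 alone passed both thresholds with IFN-γ. Among 6 family members that carry other symbols, 4 were tested, and MID1, a COS-box ligase that acts on the phosphatase PP2A, fell by 1.14 with IFN-γ (SE 0.06, edgeR adjusted p = 1.25e-09) and rose by 1.21 on addition of AX-0085 (SE 0.06, edgeR adjusted p = 1.00e-09). PML, the organizer of nuclear bodies, had a log2 fold change of 0.58 with IFN-γ (SE 0.10, edgeR adjusted p = 0.000148).

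Of 34 ubiquitin and ubiquitin-like E1 and E2 enzymes, from which E3 ligases receive ubiquitin, 32 were tested. With IFN-γ 2 were higher and 1 was lower, where 10.3% and 17.2% of all genes were, with a median log2 fold change of 0.18 against -0.06 for all genes. UBA7, the E1 of the ubiquitin-like modifier ISG15, had 5 and 1 counts in untreated cells, 69 and 66 with IFN-γ, 10 and 9 with AX-0085, and 85 and 94 with both, so that the 4 libraries with IFN-γ stood above the 4 without it. It rose by 4.77 with IFN-γ (SE 0.47, edgeR adjusted p = 9.28e-07), and its change on addition of AX-0085 was 0.13 (SE 0.25, edgeR adjusted p = 0.663). UBE2L6, the E2 for ISG15, had 686 and 613 counts in untreated cells, 6403 and 7182 with IFN-γ, 743 and 811 with AX-0085, and 1923 and 1295 with both. It rose by 3.72 with IFN-γ (SE 0.09, edgeR adjusted p = 1.24e-12) and fell by 2.39 on addition of AX-0085 (SE 0.08, edgeR adjusted p = 3.95e-11). UBE2T, an E2 of the Fanconi anaemia pathway, fell by 1.97 with IFN-γ (SE 0.10, edgeR adjusted p = 1.48e-09). With AX-0085 alone 0 of the 32 were higher and 3 were lower (UBE2C, UBE2S and UBE2T), where 6.41% and 5.62% of all genes were.

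Of 33 sensors, adaptors and other partners of TRIM ligases, 32 were tested, with 7 higher and 3 lower with IFN-γ, where 10.3% and 17.2% of all genes were. On addition of AX-0085 1 was higher and 6 were lower, where 16.5% and 8.28% of all genes were. IFIH1, the RNA sensor MDA5 that TRIM65 modifies, had a log2 fold change of 3.59 with IFN-γ (SE 0.11) and -2.06 on addition of AX-0085 (SE 0.10). IRF8, a target of TRIM21, had one of 4.47 (SE 0.21) and -3.35 (SE 0.19), and IRF7 one of 2.31 (SE 0.14) and -2.38 (SE 0.14). STING1, the adaptor of cytosolic DNA sensing, fell by 2.22 with IFN-γ (SE 0.38, edgeR adjusted p = 0.000155), and its change on addition of AX-0085 was -0.29 (SE 0.53, edgeR adjusted p = 0.65).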

How the data were processed

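Stranded mRNA libraries of A549 cells were sequenced. Per the submitters' processing notes and the study's methods, the authors used bcl2fastq 2.20, Trim Galore 0.6.7, STAR 2.7.9a (GRCh38) and featureCounts, and deposited raw counts per gene, whole numbers without normalization. The strand setting, the annotation release and the treatment of multi-mapped reads are not given in the sources used here.

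Gene types, positions and overlaps came from GENCODE 44, which held 60463 of the 60664 identifiers. Counts were filtered with edgeR 4.0.16 (filterByExpr), scaled by TMM (factors 0.916 to 1.04) and put to the quasi-likelihood test (R 4.3.3). A single model held the 8 libraries as 4 groups, with no covariate. A gene was called at a Benjamini-Hochberg-adjusted p under 0.05 over all 15066 genes tested and a fold change over 2. CPM use TMM-scaled library sizes, marker sums total counts. Log2 values of single libraries add 0.125. Depth is given with the results, and the common biological coefficient of variation was 0.0609.

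On simulated data for IFN-γ against untreated over 15066 genes, 200 of them changed, 100% of the changed genes were recovered at a log2 change of 1.5 and 100% at 3. The changed genes were drawn from those with mean counts above the means of TRIM17 and TRIM31. Every gene was given the common coefficient of variation. These recoveries therefore do not cover low genes or genes with a wider spread. Members of a group differed beyond sampling noise (chi-square per degree of freedom 9.34 to 30.7), so that none was counted as a repeat. Same-numbered libraries did not deviate together between all groups (correlations -0.12 to 0.102), so that no block was used.

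Values in every library were given for the called members with the largest change, 8 for IFN-γ against untreated and 4 for each other comparison, and for every called antiviral or chromatin member. Other genes were named by list, with at most 4 a list among those called with IFN-γ or on addition of AX-0085. Values of TRIM3, TRIM4, TRIM8, TRIM16, TRIM23, TRIM24, TRIM28, TRIM33, TRIM44, TRIM47, TRIM56, TRIM62, TRIM73, TRIM74 and PML, and the TRIM5 and TRIM14 promoters, were added after they were seen. Members and lists were chosen with earlier results of these data known. Alternatives were DESeq2 1.42.0, other scalings and filters, the compared groups alone, no fold minimum, the replicate block and each library left out.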

Additional observations from a re-analysis of the deposited data

Results flagged for a closer look

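In 9 tested TRIM genes the IFN-γ change with AX-0085 differed from that without it by over 2-fold on the log2 interaction of edgeR's quasi-likelihood test. The interaction was 3.81 for TRIM17 (SE 1.1, edgeR adjusted p = 0.00871), 2.41 for TRIM45 (adjusted p = 5.88e-06), -2.23 for TRIM69 (adjusted p = 2.75e-08), -2.07 for TRIM21 (adjusted p = 1.82e-08), 1.91 for TRIM67 (adjusted p = 0.000114), -1.47 for TRIM25 (adjusted p = 3.90e-08), -1.39 for TRIM36 (adjusted p = 0.00269), -1.17 for TRIM38 (adjusted p = 1.65e-05) and 1.07 for TRIM3 (adjusted p = 2.53e-05), all in edgeR. The value of TRIM17 rests on 2 counts in the IFN-γ libraries and ran from 3.05 to 7.19 with single libraries left out. It lost the adjusted p without replicate 1 of the cells given both (3.38, edgeR adjusted p = 0.0747) and in DESeq2 (3.92, DESeq2 adjusted p = 0.0506). TRIM45, TRIM67, TRIM3 and TRIM17 were lower with IFN-γ alone and had log2 fold changes of 0.05 to 0.46 with IFN-γ in the presence of AX-0085. The interaction contains the IFN-γ change with its sign turned, so its sign opposite to that change is partly built in.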

How the results depend on the processing

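No direction of a named TRIM gene that was called turned under any alternative run, and 1131 values for named members kept their side of the thresholds, 13 crossed to a call and 28 lost one. Without the fold minimum the counts were 18 higher and 8 lower with IFN-γ (32.1% and 36% of all genes). They were 13 and 13 on addition of AX-0085 to IFN-γ (33.7% and 32.8% of all genes) and 11 and 6 with AX-0085 alone (26.7% and 26.6%). For both against AX-0085 they were 11 and 4 (17.3% and 17.4% of all genes). For the interaction they were 8 and 12, or 22.2% and 33.3% of tested members, against 26.7% and 23.6% of all genes. The 5 members higher on addition of AX-0085 became 2 in DESeq2, 3 with its size factors and 8 with library size alone, which moved the median of all genes to -0.17 with IFN-γ and 0.16 on addition of AX-0085. They were 2 to 6 with a library left out, with 3 without IFN-γ replicate 1 and 2 without replicate 1 of the cells given both. The member higher with AX-0085 alone became 0 with DESeq2 size factors or with only the groups compared and 2 with genes of 1 count in any library, and 0 to 3 with a library left out. It was 3 without untreated replicate 1, untreated replicate 2 or AX-0085 replicate 2, 0 without AX-0085 replicate 1, and 2 without any 1 of the other 4. The lower one became 0 in DESeq2 and with at least 10 counts in every library, and 0 to 1 with a library left out, with 0 without untreated replicate 1, AX-0085 replicate 1 or replicate 1 of the cells given both. The minimum of 10 counts also removed TRIM31, leaving 0 higher for both against AX-0085. With a library left out the filter kept 39 to 40 members, against 36.

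Replicate numbers are shared by the groups, but same-numbered libraries did not deviate together. With the number as a replicate block, 7 members were higher and 5 lower with IFN-γ, and 5 and 4 on addition of AX-0085. On addition of AX-0085 the block lost TRIM17 (2.27) and gained TRIM74 (1.01), and it added TRIM16 to the interaction (1.00). With the numbers of the untreated pair swapped, chosen after seeing the data, TRIM73 was at 0.97 on addition of AX-0085. With 2 libraries a group, changes near 2-fold and genes under about 10 counts were decided by single libraries.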

Other observations

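TRIM16L, annotated as a pseudogene in GENCODE 44 (chr17:18722237-18735460) and therefore no member, held 12808 and 11275 counts in untreated libraries, 13363 and 12813 counts under AX-0085, 11434 and 15076 counts under IFN-γ and 16431 and 11081 counts under both. These are far above the counts of its near-identical copy TRIM16, which was below 8 CPM in every library. Its log2 fold change with IFN-γ was 0.45 (SE 0.07, edgeR adjusted p = 4.69e-05), in the direction opposite to that of TRIM16. The readthrough genes were low, with TRIM6-TRIM34 at 0 and TRIM39-RPP21 at 0 to 3 counts in every library.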
